A study of Mus musculus with 34 samples.

Results

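The genes described here were 10 genes of the p53 and Gadd45 growth arrest response, chosen by gene symbol: Trp53, Cdkn1a, Mdm2, Ccng1, Bax, Gadd45a, Gadd45b, Gadd45g, Sesn1 and Btg2. Every probe set that the array annotation gives to exactly 1 of these symbols was taken, which found 19 of the 45037 probe sets and 8 of the 10 genes. Trp53 and Bax were not analysed here. The samples were cortices of 34 mice at 15 weeks of age, on a mixed CBA and C57BL/6 background, each hybridised to 1 array whose probe set levels are on the log2 scale. Dble::R6/2 mice (n = 9) carried both the R6/2 transgene and 1 targeted Hdac4 allele. R6/2 mice (n = 9) carried the transgene alone, a fragment of human mutant huntingtin that models Huntington's disease, on 2 intact Hdac4 alleles. Hdac4HET mice (n = 8) carried 1 Hdac4 allele disrupted in every cell from conception and no transgene. WT littermates (n = 8) carried neither. Whole cortex was used, so that fewer cells of a type and less RNA per cell cannot be told apart in any of the changes below.

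The p53 protein is a transcription factor that is stabilised after DNA damage and other stress and switches on genes that halt the cell cycle, repair DNA or start apoptosis. Cdkn1a, which encodes the Cdk inhibitor p21, is its best known arrest target, while Mdm2 encodes the ubiquitin ligase that degrades p53 and closes a negative feedback loop. The Gadd45 proteins are small stress sensors that bind Map3k4, PCNA and Cdk1, and in neurons they are also induced by synaptic activity and take part in DNA demethylation. In post-mitotic neurons the same genes are used outside the cell cycle, and Btg2 and Gadd45b are counted among the activity-regulated immediate early genes.

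All 8 genes had at least 1 promoter in the RefSeq promoter table (mouse build GRCm38.p6, from 250 bases before to 50 bases after the start site), 10 promoters in all because Cdkn1a and Sesn1 have 2 listed start sites. Both strands were searched for the p53 decamer consensus, and 5 of the 10 promoters held it, against 8.36% of the 32851 promoters in the table. The stretches are shown because the 5 genes that carry the motif went in different directions in the cortex. The matched decamers are in capitals, each stretch reads 5′ to 3′ on the gene's strand, and all lie before the start site.
Cdkn1a, chr17:29090894-29090949, plus strand: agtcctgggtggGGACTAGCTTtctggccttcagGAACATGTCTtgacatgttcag
Ccng1, chr11:40755450-40755483, minus strand: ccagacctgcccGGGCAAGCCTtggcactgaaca
Mdm2, chr10:117710923-117710956, minus strand: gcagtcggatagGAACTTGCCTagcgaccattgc
Sesn1, chr10:41887254-41887287, plus strand: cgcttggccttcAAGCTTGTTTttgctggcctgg
Gadd45a, chr6:67037426-67037459, minus strand: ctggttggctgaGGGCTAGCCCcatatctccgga
The Cdkn1a promoter at the upstream start site held 2 decamers, starting 73 and 51 bases before that site, and the promoter at the downstream start site held none. The Sesn1 decamer lay at the downstream start site, and the promoter at the upstream site held none. A pair of decamers up to 13 bases apart was found in 0.0731% of all promoters and in no other member's promoter. The promoters of Btg2, Gadd45b and Gadd45g held no match in this window. The Btg2 promoter instead held the cAMP response element TGACGTCA, a palindrome present in 1.79% of all promoters, and those of Gadd45b and Gadd45g each held the E-box CACGTG, a palindrome present in 7.15%. These stretches are shown because those 3 genes held no p53 decamer here.
Btg2, chr1:134079302-134079333, minus strand: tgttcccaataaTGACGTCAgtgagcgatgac
Gadd45b, chr10:80929894-80929923, plus strand: agccctgaccccCACGTGgggccgccggag
Gadd45g, chr13:51846521-51846550, plus strand: cgcacccctcccCACGTGgccttctggcac
A match is a description of the letters and was not tested as a binding site in these cortices.

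Before the results, 3 facts of the arrays bear on them. Prl, a pituitary hormone, was above a log2 value of 8 on 4 arrays (WT replicates 2, 6 and 7 and Hdac4HET replicate 1). R6/2 replicate 2 carried epidermal transcripts, with a log2 summed level of 10 epidermal markers of 10.6, against a median of 9.35 over all R6/2 arrays and at most 9.53 in each of the other genotypes. Xist disagreed with the labelled sex on 15 of the 34 arrays, while Hdac4 itself was lower where the labels give 1 allele: its 3 probe sets read 71.5%, 70.3% and 77.7% of the WT level in Hdac4HET cortex, and on the R6/2 background the second brightest read 65.5% of the R6/2 level in Dble::R6/2 cortex (limma adjusted p = 3.299e-04), while the others read 79.3% and 94.6% and were not called. In R6/2 cortex, with 2 intact alleles, the brighter Hdac4 probe sets read 90.4% and 101% of the WT level and were not called, but the third read 76.1% (limma adjusted p = 0.00449), so that it does not separate the allele from the transgene. Neuron markers averaged between 11.2 and 11.5 on the log2 scale on R6/2 and on Dble::R6/2 arrays. On WT arrays they averaged between 11.7 and 11.8, and on Hdac4HET arrays between 11.6 and 11.8. Calls of members that rest on the Prl-high arrays or on R6/2 replicate 2 are given with and without them. Changes of the genes in the pathway and marker lists are given with all arrays only. Over all probe sets, 12127 were called in R6/2 against WT, and 8040 without the Prl-high arrays. All tests are limma's moderated test on each pair of genotypes, with Benjamini-Hochberg adjustment over all 45037 probe sets, and a probe set is said to be called at an adjusted p of 0.05 or less.

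The R6/2 transgene split the group. In R6/2 against WT cortex, Cdkn1a rose while Ccng1, Gadd45a, Gadd45b and Btg2 fell, and Mdm2, Sesn1 and Gadd45g did not pass the test. Of the 19 probe sets 9 were called, 2 higher and 7 lower, where 26.9% of all probe sets were called, 14.9% higher and 12% lower. The median change of the 19 was -0.17 on the log2 scale and that of all probe sets was 0.01. The plot of the brightest probe set of each gene shows the levels behind these calls.

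**Figure D1:**
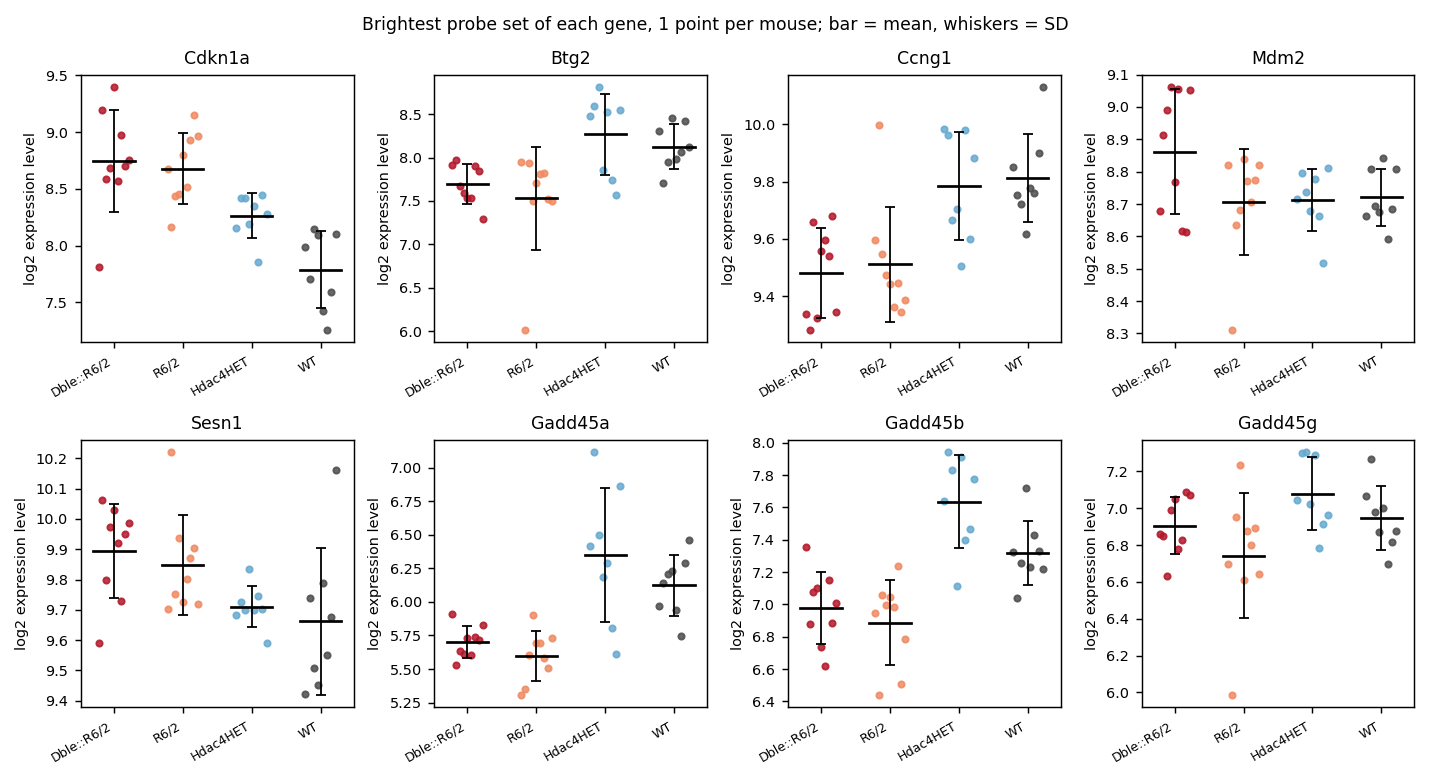
Log2 expression level (y axis) of the brightest probe set of each of the 8 genes in every mouse, by genotype (x axis: Dble::R6/2, R6/2, Hdac4HET, WT), with the mean as a bar and the SD as whiskers. All 9 R6/2 mice lie above all 8 WT mice for Cdkn1a, 8 of 9 lie below all WT mice for Gadd45a, and Mdm2 overlaps in all genotypes.

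Cdkn1a was the member with the largest rise. Its brighter probe set (1424638_at) ranged from 8.16 to 9.15 with a median of 8.67 in R6/2 cortex, against 7.26 to 8.14 with a median of 7.85 in WT cortex. Every R6/2 array lay above every WT array, as was so for 4.19% of all probe sets. The log2 change was 0.89 ± 0.15 (SE, 95% interval 0.58 to 1.19), or 1.85-fold (limma adjusted p = 1.399e-04). The other probe set (1421679_a_at) ranged from 6.48 to 8.04 with a median of 7.66 in R6/2 cortex, against 6.80 to 7.40 with a median of 6.96 in WT cortex. Of the R6/2 arrays 8 lay above all WT arrays and 1, replicate 2, lay below all of them. Its change was 0.59 ± 0.16 (SE, limma adjusted p = 0.00864), and 0.72 without R6/2 replicate 2 (limma adjusted p = 1.621e-05). Without the 3 Prl-high WT arrays, which read 7.70, 7.26 and 7.59 on the brighter probe set, the changes were 0.73 and 0.56, and only the first was called (limma adjusted p = 0.00412 and 0.0631).

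Ccng1, which encodes cyclin G1, a p53 target that acts with protein phosphatase 2A on Mdm2, fell on all 3 of its probe sets. The brightest (1420827_a_at) ranged from 9.34 to 9.998 with a median of 9.45 in R6/2 cortex, against 9.62 to 10.13 with a median of 9.77 in WT cortex. Apart from replicate 2, which was the highest of its group, all R6/2 arrays lay below all WT arrays. The change was -0.30 ± 0.09 (SE), which left 81.1% of the WT level (limma adjusted p = 0.0123), and -0.36 without replicate 2 (limma adjusted p = 3.615e-04).

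The second probe set of Ccng1 (1450017_at) moved furthest of all 19. It ranged from 5.95 to 7.39 with a median of 7.10 in R6/2 cortex, against 7.77 to 8.21 with a median of 8.07 in WT cortex, and the groups did not overlap. The change was -1.10 ± 0.17 (SE), which left 46.6% of the WT level (limma adjusted p = 6.957e-05). The array at 5.95 was R6/2 replicate 2, and without it the change was -0.98 (limma adjusted p = 1.327e-05). The third (1450016_at) did not overlap either, at 6.28 to 6.59 in R6/2 cortex and 6.67 to 7.21 in WT cortex, with a change of -0.47 ± 0.07 (SE, limma adjusted p = 7.902e-05). Groups that did not overlap, with R6/2 lower, were found for 3.03% of all probe sets. The probe sets agreed in direction but not array by array: within genotypes the brightest and the second correlated at -0.01 over 34 arrays, or 0.24 without R6/2 replicate 2. The size of the fall therefore differed between probe sets of 1 gene, and which transcripts each probe set reads was not tested.

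**Figure D2:**
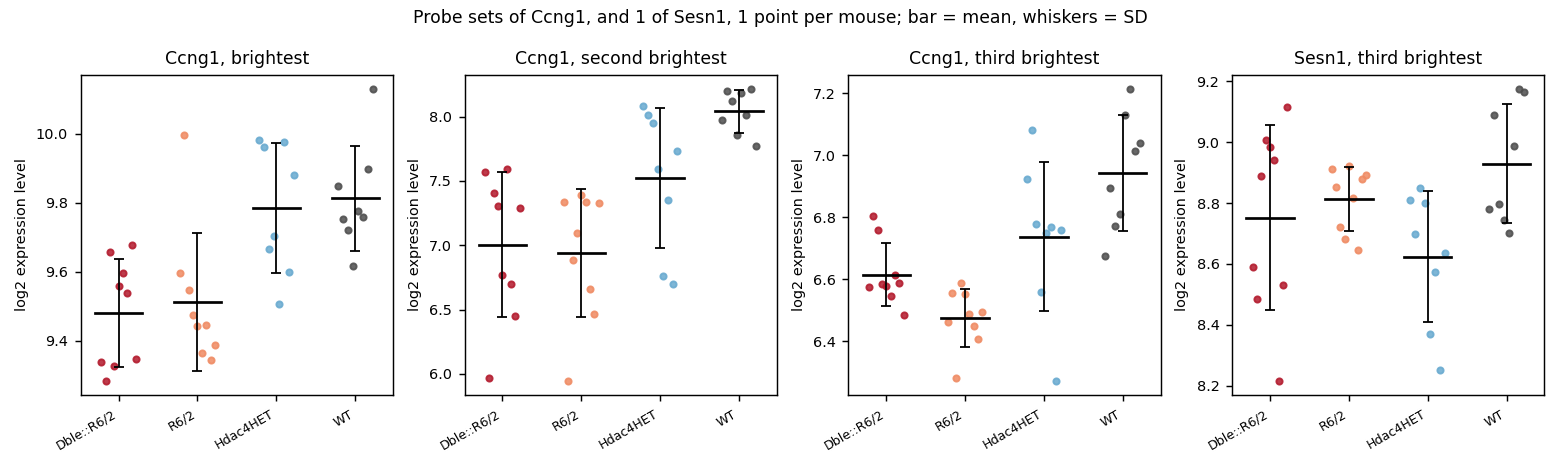
Log2 expression level (y axis) of the 3 probe sets of Ccng1 and of the third brightest of Sesn1 in every mouse, by genotype (x axis), with the mean as a bar and the SD as whiskers. On the second brightest Ccng1 probe set the WT mice lie between 7.77 and 8.21, while the other genotypes spread down to 5.95, and on the Sesn1 probe set the Dble::R6/2 mice spread from 8.22 to 9.12.

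Of the Gadd45 genes, Gadd45a and Gadd45b fell and Gadd45g did not pass. Gadd45a (1449519_at), the member that p53 induces directly, ranged from 5.31 to 5.90 with a median of 5.60 in R6/2 cortex, against 5.75 to 6.46 with a median of 6.18 in WT cortex. Only R6/2 replicate 4, at 5.90, reached the WT range. The change was -0.53 ± 0.10 (SE, limma adjusted p = 4.073e-04).

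Gadd45b is the activity- and stress-induced member that in neurons promotes demethylation of growth factor promoters. Its brightest probe set (1450971_at) ranged from 6.44 to 7.24 with a median of 6.98 in R6/2 cortex, against 7.04 to 7.72 with a median of 7.29 in WT cortex. Of the R6/2 arrays 6 lay below all WT arrays. The change was -0.43 ± 0.11 (SE, limma adjusted p = 0.00535). The array at 6.44 was R6/2 replicate 2, and without it the change was -0.37 (limma adjusted p = 0.0072). The second (1449773_s_at) changed by -0.17 (limma adjusted p = 0.0936) and the third (1420197_at), which lay between 4.13 and 4.87 on all arrays, by -0.04 (limma adjusted p = 0.763). Gadd45g (1453851_a_at) ranged from 5.99 to 7.24 in R6/2 cortex and from 6.69 to 7.27 in WT cortex, with a change of -0.20 (95% interval -0.47 to 0.06, limma adjusted p = 0.263). Its lowest array was again R6/2 replicate 2, and without it the change was -0.11.

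Btg2, an antiproliferative p53 target that recruits the Ccr4-Not deadenylase to messenger RNA, fell on both probe sets. The brighter (1416250_at) ranged from 6.02 to 7.95 with a median of 7.71 in R6/2 cortex, against 7.71 to 8.45 with a median of 8.10 in WT cortex. R6/2 replicate 2 lay at 6.02 and the other R6/2 arrays at 7.50 or above. The change was -0.60 ± 0.21 (SE, limma adjusted p = 0.0371), and -0.41 without that array (limma adjusted p = 0.00669). This call was lost with sex read from Xist as a term (limma adjusted p = 0.0523) and with the methods' t-test. On the other probe set (1448272_at), where replicate 2 lay inside its group, the range was 6.26 to 6.92 in R6/2 cortex and 6.77 to 7.28 in WT cortex, with a change of -0.39 ± 0.10 (SE, limma adjusted p = 0.0055). Without the Prl-high WT arrays the brightest probe sets of Ccng1 and Btg2 kept their size, -0.31 and -0.63, and were not called (limma adjusted p = 0.0569 and 0.0919).

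Mdm2 and Sesn1, the other p53 targets of the group, were not called. The brightest Mdm2 probe set (1423605_a_at) had a median of 8.77 in R6/2 cortex and 8.69 in WT cortex, and its change of -0.01 had a 95% interval of -0.16 to 0.13, or 0.04 without R6/2 replicate 2. The second (1427718_a_at) changed by -0.35 (limma adjusted p = 0.112), or -0.23 without R6/2 replicate 2, which lay lowest at 5.17. The third (1457929_at) read between 3.01 and 3.92 on all arrays and changed by 0.09 (limma adjusted p = 0.492).

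Sesn1 encodes sestrin 1, which restrains mTORC1 under stress. Its 4 probe sets (1433711_s_at, 1438931_s_at, 1454699_at and 1444376_at) changed by 0.19, 0.22, -0.12 and -0.05 in R6/2 against WT cortex, with limma adjusted p between 0.17 and 0.71. On the brightest, R6/2 arrays ranged from 9.70 to 10.22 and WT arrays from 9.42 to 10.16. The WT array at 10.16 was replicate 8, and without it this probe set changed by 0.26 and was called, while without R6/2 replicate 2 it changed by 0.14 and was not called.

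The same transgene on the Hdac4HET background gave a similar set of calls. In Dble::R6/2 against Hdac4HET cortex 8 of the 19 probe sets were called, 2 higher and 6 lower, where 23.1% of all probe sets were called, 13.2% higher and 9.98% lower. Gadd45b fell on its 2 brighter probe sets. The brightest ranged from 6.62 to 7.35 with a median of 7.01 in Dble::R6/2 cortex, against 7.12 to 7.94 with a median of 7.71 in Hdac4HET cortex, a change of -0.66 ± 0.12 (SE, limma adjusted p = 2.850e-04). The second ranged from 6.53 to 7.09 in Dble::R6/2 cortex and from 6.81 to 7.61 in Hdac4HET cortex, a change of -0.47 ± 0.11 (SE, limma adjusted p = 0.00305). On each of them 7 of the 9 Dble::R6/2 arrays lay below all Hdac4HET arrays.

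Gadd45a ranged from 5.53 to 5.91 in Dble::R6/2 cortex and from 5.61 to 7.12 in Hdac4HET cortex, with a change of -0.65 ± 0.16 (SE, limma adjusted p = 0.00418). The Hdac4HET arrays were widely spread, with an SD of 0.50 against 0.12 in Dble::R6/2 cortex. Btg2 changed by -0.57 ± 0.16 and -0.45 ± 0.15 on its 2 probe sets (SE, limma adjusted p = 0.0118 and 0.0339), and the brightest probe set of Ccng1 by -0.30 ± 0.08 (SE, limma adjusted p = 0.0101). The second and the third of Ccng1 changed by -0.52 and -0.12 and were not called (limma adjusted p = 0.141 and 0.371).

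Cdkn1a rose by 0.48 ± 0.16 on the brighter probe set (SE, limma adjusted p = 0.0311). It ranged from 7.81 to 9.40 with a median of 8.71 in Dble::R6/2 cortex, against 7.86 to 8.44 with a median of 8.31 in Hdac4HET cortex, and 8 of the 9 Dble::R6/2 arrays lay above all Hdac4HET arrays. The other probe set changed by 0.35 (limma adjusted p = 0.121). The brightest probe set of Sesn1 also rose, by 0.18 ± 0.06 (SE, limma adjusted p = 0.0453), with arrays between 9.59 and 10.06 in Dble::R6/2 cortex and between 9.59 and 9.83 in Hdac4HET cortex. Neither call held without Hdac4HET replicate 1, the Prl-high array (limma adjusted p = 0.0541 and 0.072), at changes of 0.46 and 0.18. The second probe set of Btg2 was not called without it either, at -0.43 (limma adjusted p = 0.0621).

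**Figure D3:**
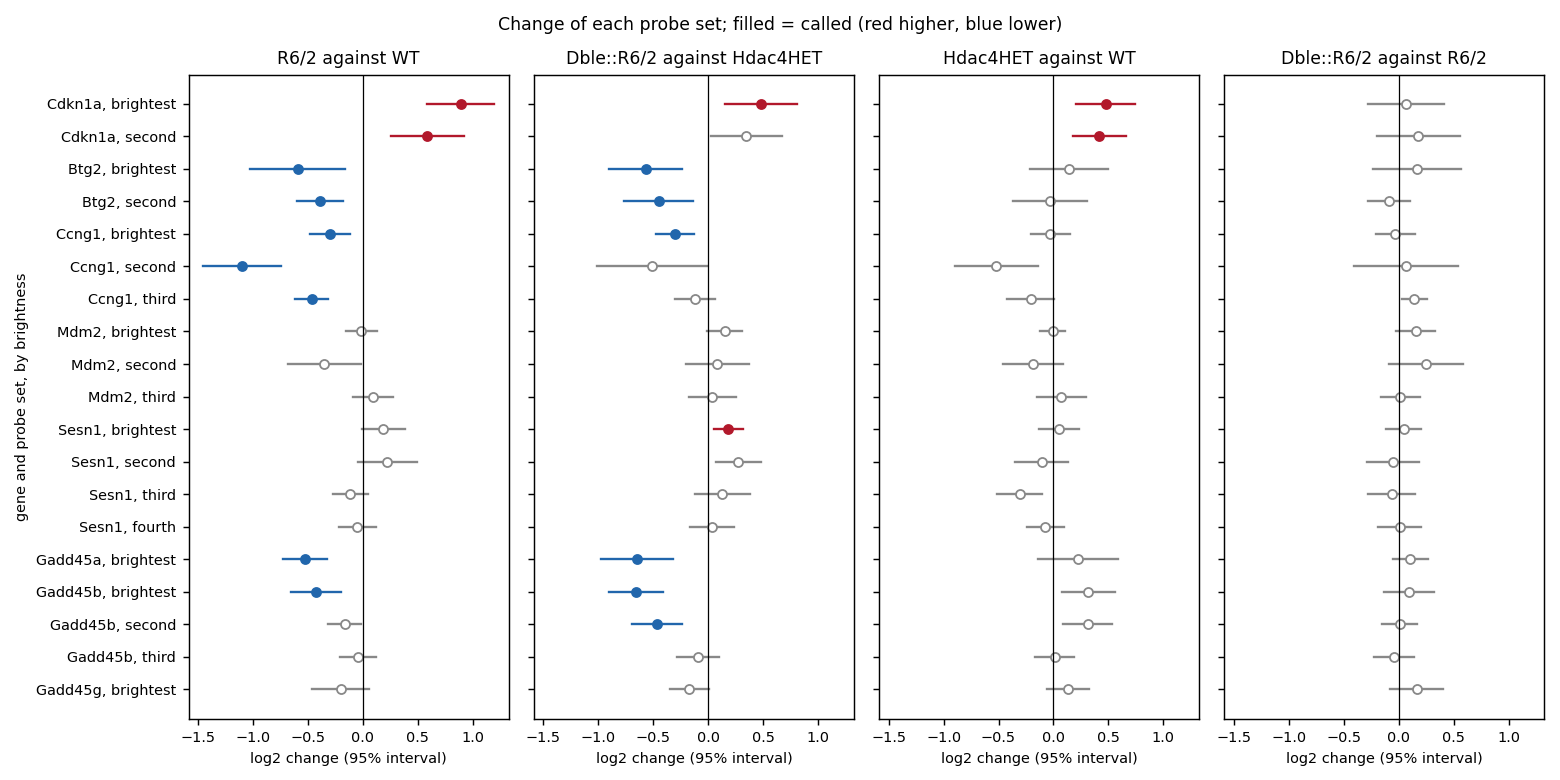
Log2 change (x axis, with its 95% interval) of the 19 probe sets (rows, by gene and brightness) in 4 comparisons. Filled points are called at an adjusted p of 0.05 or less, red higher and blue lower, with 9 in R6/2 against WT, 8 in Dble::R6/2 against Hdac4HET, 2 in Hdac4HET against WT and 0 in Dble::R6/2 against R6/2.

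Loss of 1 Hdac4 allele alone was accompanied by a rise of Cdkn1a that was called narrowly and not under every setting. In Hdac4HET against WT cortex 2 of the 19 probe sets were called, both of Cdkn1a and both higher, where 3.91% of all probe sets were called and 1.67% were called higher. The brighter ranged from 7.86 to 8.44 with a median of 8.31 in Hdac4HET cortex, against 7.26 to 8.14 with a median of 7.85 in WT cortex, and 7 of the 8 Hdac4HET arrays lay above all WT arrays. Its change was 0.48 ± 0.13 (SE, 95% interval 0.21 to 0.74), or 1.39-fold (limma adjusted p = 0.0452). The other ranged from 6.86 to 7.70 in Hdac4HET cortex and from 6.80 to 7.40 in WT cortex, with a change of 0.42 ± 0.12 (SE, limma adjusted p = 0.0497).

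Both Cdkn1a calls lay close to the threshold and were lost when the Prl-high arrays were left out, with changes of 0.33 and 0.36 (limma adjusted p = 0.276 and 0.29). Leaving out 1 array lost both calls in 11 of 16 fits, and both were kept only without WT replicate 8 or Hdac4HET replicate 4. The 3 WT arrays high in Prl were among the 4 lowest WT arrays on the brighter Cdkn1a probe set, and the part of pituitary RNA in this difference was not tested.

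No other member passed in Hdac4HET against WT cortex. For Gadd45b, 4 of 8 Hdac4HET arrays lay above all WT arrays on the brightest probe set and 5 of 8 on the second, with changes of 0.32 and 0.31 (limma adjusted p = 0.113 and 0.0972). The second probe set of Ccng1 had 5 of 8 Hdac4HET arrays below all WT arrays, from 6.70 to 8.08 in Hdac4HET cortex against 7.77 to 8.21 in WT cortex, and a change of -0.52 (limma adjusted p = 0.0989). The third of Sesn1 changed by -0.31 (limma adjusted p = 0.0773). The 95% interval of the brightest Mdm2 probe set was -0.12 to 0.11.

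Reduced Hdac4 on the R6/2 background moved no member past the test. In Dble::R6/2 against R6/2 cortex 0 of the 19 probe sets were called by limma and 1 had an unadjusted p under 0.05, where 0.00666% of all probe sets were called. The methods' t-test also called 0 of the 19. The 1 was the third probe set of Ccng1, which ranged from 6.49 to 6.80 in Dble::R6/2 cortex and from 6.28 to 6.59 in R6/2 cortex. Of the Dble::R6/2 arrays 3 lay above all R6/2 arrays, and the change was 0.14 ± 0.05 (SE, limma adjusted p = 0.848).

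Intervals bound what could have been missed. For Cdkn1a the brighter probe set had a median of 8.71 in Dble::R6/2 cortex and 8.67 in R6/2 cortex, a change of 0.06 with a 95% interval of -0.28 to 0.41. For Gadd45a the change was 0.11 (-0.05 to 0.26), for the brightest Gadd45b probe set 0.09 (-0.14 to 0.32), for the brighter Btg2 probe set 0.16 (-0.24 to 0.57) and for the second of Ccng1 0.07 (-0.40 to 0.54). These values include R6/2 replicate 2. Without it the changes were 0.0004 for Cdkn1a, 0.08 for Gadd45a and 0.03 for Gadd45b. On the same Btg2 and Ccng1 probe sets they were -0.02 and -0.06, and none was called. The brightest probe set of Mdm2 had 5 of 9 Dble::R6/2 arrays above all R6/2 arrays, from 8.61 to 9.06 in Dble::R6/2 cortex against 8.31 to 8.84 in R6/2 cortex, with a change of 0.15 (limma adjusted p = 0.889). Without R6/2 replicate 2 that Mdm2 change was 0.10. The third of Sesn1 had nearly equal means but an unlike spread, with 4 Dble::R6/2 arrays above and 4 below all R6/2 arrays and an SD of 0.30 against 0.10 in R6/2 cortex.

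Against WT, the Dble::R6/2 cortex showed 9 of the 19 probe sets called, 2 higher and 7 lower, where 30.5% of all probe sets were called, 16.8% higher and 13.7% lower. The second probe sets of Ccng1 and Btg2 lay below all WT arrays on every Dble::R6/2 array, as was so for 3.41% of all probe sets. This comparison shares its control arrays with R6/2 against WT, so the values are given side by side. The 2 Cdkn1a probe sets changed by 0.95 and 0.77 in Dble::R6/2 cortex and by 0.89 and 0.59 in R6/2 cortex. The 3 of Ccng1 changed by -0.33, -1.03 and -0.33 in Dble::R6/2 cortex and by -0.30, -1.10 and -0.47 in R6/2 cortex. Gadd45a changed by -0.42 in Dble::R6/2 cortex and -0.53 in R6/2 cortex, the brightest probe set of Gadd45b by -0.34 in Dble::R6/2 cortex and -0.43 in R6/2 cortex, and the 2 of Btg2 by -0.43 and -0.48 in Dble::R6/2 cortex and by -0.60 and -0.39 in R6/2 cortex.

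Whether the effect of the transgene depended on the Hdac4 allele was tested as an interaction over all 34 arrays. It called 0 of the 19 probe sets, 2 had an unadjusted p under 0.05, and 0.00222% of all probe sets were called. The 2 were the third probe set of Ccng1, at 0.35 ± 0.11 (SE, limma adjusted p = 0.306), and the second of Gadd45b, at -0.30 ± 0.13 (SE, limma adjusted p = 0.441). For the brighter Cdkn1a probe set the transgene changed the level by 0.48 on the Hdac4HET background and 0.89 on the WT background, a difference of -0.41 with a 95% interval of -0.86 to 0.04 (limma adjusted p = 0.553). Without the Prl-high arrays that difference was -0.26 (limma adjusted p = 0.883).

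On the brightest probe sets the genotypes were placed in order of their mean level. The order was Hdac4HET, WT, Dble::R6/2 and R6/2, high to low, for Gadd45a, Gadd45b, Gadd45g and Btg2, and Dble::R6/2, R6/2, Hdac4HET and WT for Cdkn1a and Sesn1. Ccng1 ran WT, Hdac4HET, R6/2 and Dble::R6/2, and the Mdm2 means lay between 8.71 and 8.86 in all genotypes. These orders include R6/2 replicate 2. Without it, Dble::R6/2 minus R6/2 was -0.02 for Btg2 and 0.03 for Ccng1, so that Dble::R6/2 and R6/2 changed places for both genes. No member was called between Dble::R6/2 and R6/2, and Gadd45g was called in no comparison. The brighter Cdkn1a probe set averaged 8.74 ± 0.45 in Dble::R6/2, 8.68 ± 0.31 in R6/2, 8.26 ± 0.20 in Hdac4HET and 7.79 ± 0.34 in WT cortex (SD). Of the neighbours in that order, Dble::R6/2 was not called against R6/2, and R6/2 was not tested against Hdac4HET. Hdac4HET was called against WT close to the threshold, and not without the Prl-high arrays. Gadd45b averaged 6.98 ± 0.22 in Dble::R6/2, 6.89 ± 0.26 in R6/2, 7.64 ± 0.29 in Hdac4HET and 7.32 ± 0.20 in WT cortex (SD), so that Hdac4HET was highest but not called against WT. For labelled sex the lowest limma adjusted p of the 19 probe sets was 0.914. The labels called 0 of all 45037 probe sets, so this test cannot decide whether the members differ by sex. For a split of the 34 arrays into 20 low and 14 high in Xist the lowest was 0.755, and 29 of all probe sets were called.

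The members were next compared with the rest of their pathways, with 1 probe set for each of 18193 genes. In R6/2 against WT cortex 32% of these genes were called, 20.2% higher and 11.8% lower. Of 19 measured regulators and partners of p53, 8 rose and 1 fell. The acetyltransferase Ep300 rose by 0.49 (limma adjusted p = 2.173e-04), the p53 inhibitor Mdm4 by 0.46 (limma adjusted p = 2.015e-05), the checkpoint kinase Chek2 by 0.41 (limma adjusted p = 0.0125) and the deubiquitinase Usp7, which acts on both p53 and Mdm2, by 0.41 (limma adjusted p = 1.921e-05). Mdm4 thus rose on the same arrays on which Mdm2, its partner, was not called.

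Of 15 p53 targets in apoptosis, 4 rose and 1 fell. Apaf1, which builds the apoptosome, read 6.95 ± 0.25 in R6/2 cortex and 6.28 ± 0.17 in WT cortex (SD), a change of 0.66 (limma adjusted p = 6.136e-05). Trp53inp1 rose by 0.37 (limma adjusted p = 0.00276) and Zmat3 fell by 0.19 on the log2 scale (limma adjusted p = 0.042). Perp rose by 0.50 (limma adjusted p = 0.025), and it is also an epidermal junction gene. That value includes R6/2 replicate 2, the array with epidermal transcripts, and its part in the rise was not tested.

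Of 23 p53 targets in arrest, repair and metabolism, 5 rose and 3 fell. The nucleotide excision repair nuclease Ercc5 rose by 0.49 (limma adjusted p = 6.139e-04), the translesion polymerase Polk by 0.55 (limma adjusted p = 1.799e-04) and the p53-inducible ribonucleotide reductase subunit Rrm2b by 0.41 (limma adjusted p = 5.108e-05). Zfp365 fell by 0.87 on the log2 scale (limma adjusted p = 6.602e-07). Of 13 Bcl2 family genes 5 rose and 3 fell: Mcl1 and Bcl2l1, which oppose apoptosis, both rose by 0.56, Bcl2l11, which promotes it, rose by 0.38, and the neuronal pro-apoptotic Hrk fell by 1.04 on the log2 scale, with limma adjusted p between 8.019e-07 and 0.00556. Of the 5 other Cdk inhibitors, Cdkn1b rose by 0.45 and Cdkn2b by 0.29 (limma adjusted p = 0.00767 and 0.00922).

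**Figure D4:**
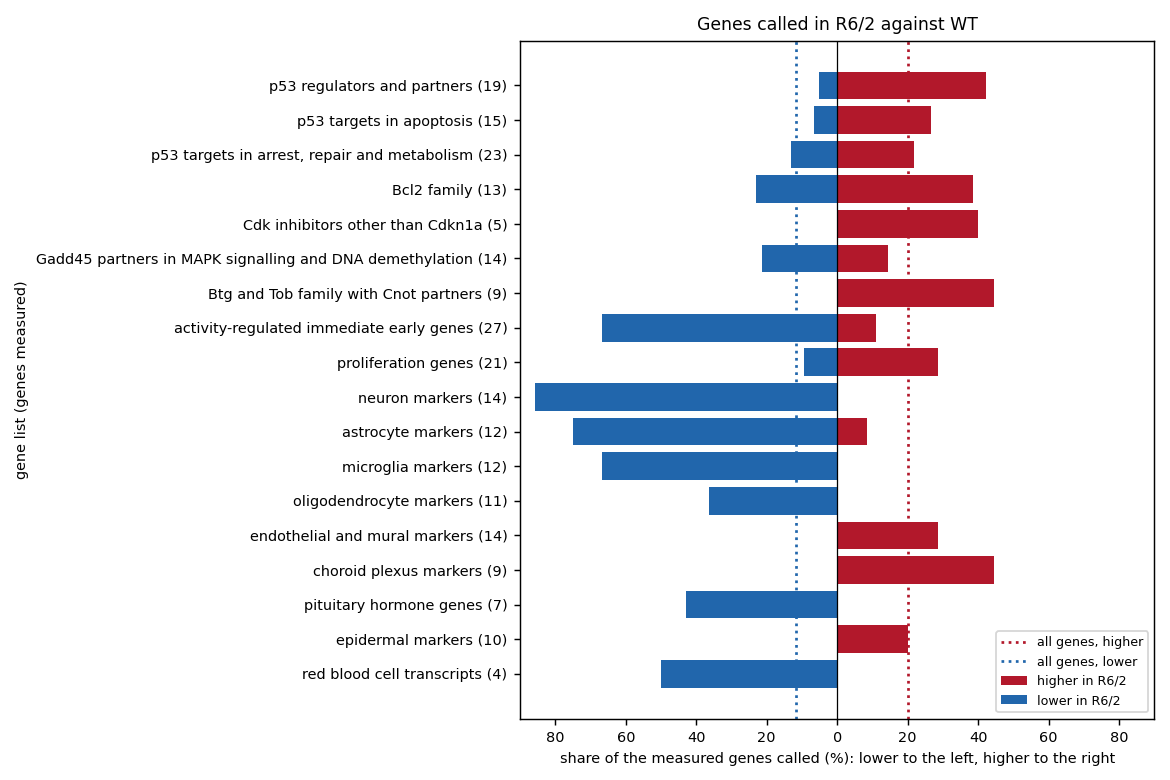
Share of the measured genes of each list (rows, number measured in brackets) called in R6/2 against WT, lower to the left and higher to the right (x axis, percent), with dotted lines at the 11.8% lower and 20.2% higher of all 18193 genes. Neuron and astrocyte markers reach furthest to the left, with 12 of 14 and 9 of 12 genes lower, and immediate early genes have 18 of 27 lower.

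Of 14 partners of the Gadd45 proteins, 2 rose and 3 fell. Map3k4, the kinase they bind and activate, rose by 0.57 (limma adjusted p = 8.856e-05), while the kinases further down, Mapk11 and Mapk9, each fell by 0.49 on the log2 scale (limma adjusted p = 1.049e-04 and 0.00119). Ercc5, which belongs to this list as well, is given above. Of 9 genes of the Btg and Tob family, the deadenylase complex and other partners 4 rose, with Tob2 at 0.46, Cnot7 at 0.29, Prmt1 at 0.25 and Cnot8 at 0.25 (limma adjusted p between 5.898e-04 and 0.00694). Of 21 proliferation genes, 6 rose and 2 fell, with the replication helicase subunits Mcm5 and Mcm6 at 0.65 and 0.64, Cdc20 at 0.62 and the cyclin Ccnd1 at -0.47 (limma adjusted p between 1.082e-04 and 0.0261). The log2 summed level of this list was highest among R6/2 arrays on replicate 2, at 10.98 against an R6/2 median of 10.76. Hdac4HET arrays reached 10.96, and the part of R6/2 replicate 2 in these changes was not tested. Mki67, the usual marker of cycling cells, changed by 0.09 (limma adjusted p = 0.627).

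Among the activity-regulated immediate early genes 18 of 27 fell and 3 rose, with a median of -0.64 on the log2 scale against 0.02 over all genes. The changes were -1.85 for Npas4, -1.82 for Egr2, -1.64 for Arc and -1.29 for Klf10 on the log2 scale (limma adjusted p between 8.242e-08 and 2.934e-05). In Dble::R6/2 against Hdac4HET cortex 20 of the 27 fell and 2 rose, where 30% of all genes were called, 18.3% higher and 11.7% lower. In Hdac4HET against WT cortex 1 of the 27 rose, where 3.17% of all genes were called and 1.46% were called higher.

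As deviations from genotype means pooled over all arrays, Gadd45a varied with these genes, and Btg2 and Gadd45b did so less closely. Each array's deviation from its genotype mean was set against the mean deviation of the immediate early list over the 34 arrays, which share their processing, so that the correlations are descriptions. They were 0.80 for Gadd45a, 0.55 for Btg2 and 0.55 for the brightest probe set of Gadd45b, or 0.80, 0.65 and 0.55 without R6/2 replicate 2. For Cdkn1a the value was 0.20, for Gadd45g 0.22 and for Ccng1 0.03. The Hdac4HET arrays spread most: replicates 2 and 8 lay 0.56 and 0.54 above their genotype mean in the list and 0.77 and 0.52 above it in Gadd45a, while replicates 6 and 7 lay at -0.37 and -0.50 in the list and -0.54 and -0.74 in Gadd45a. Not every genotype showed this: R6/2 replicates 1 and 4 lay at 0.12 and -0.20 in the list but at -0.29 and 0.31 in Gadd45a. R6/2 replicate 2 lay low in both, at -0.14 and -0.25.

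**Figure D5:**
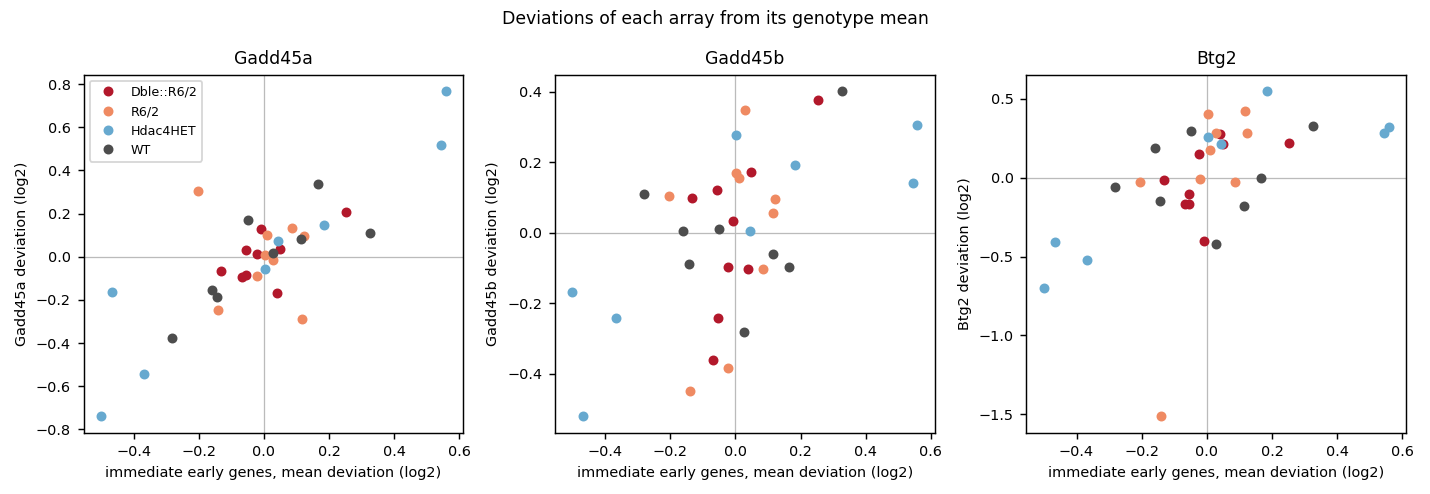
Deviation of each of the 34 arrays from its genotype mean (log2 scale) in Gadd45a, Gadd45b and Btg2 (y axes), against the mean deviation of 27 immediate early genes (x axis), coloured by genotype. Hdac4HET arrays reach both ends of the x axis, from -0.50 to 0.56, and 1 R6/2 array, replicate 2, lies far below the others in Btg2.

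The genes whose deviations correlated best with each member over the 34 arrays differed between members. For Gadd45a they were Arc, Nr4a1 and Dusp1 (0.76, 0.74 and 0.74), and for Btg2 they were Junb, Tmem121 and Prpf4 (0.85, 0.78 and 0.76). Without R6/2 replicate 2 the Btg2 values were 0.78, 0.54 and 0.57, so that Tmem121 and Prpf4 rested largely on that array. For Gadd45b they were Pnmal1, Ifngr2 and Mmgt2 (0.78, 0.76 and 0.76) and for Gadd45g Tpgs1, Tmem120a and Edem2 (0.82, 0.80 and 0.78). Without R6/2 replicate 2 the Gadd45g values were 0.70, 0.67 and 0.62.

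For Cdkn1a they were Taok2, Htra1 and Gpx3 (0.76, 0.73 and 0.71), for Mdm2 Pdha1, Cltc and Rab35 (0.80, 0.79 and 0.78), for Ccng1 Gpr155, Cep68 and Med9os (0.76, 0.73 and 0.71) and for Sesn1 Klhl8, Htatsf1 and Phip (0.81, 0.80 and 0.79). Without R6/2 replicate 2 the Ccng1 values were 0.68, 0.67 and 0.59. None of these nearest genes was another member. Between the brightest probe sets of different members the largest values were 0.69 for Gadd45b with Btg2 and -0.54 for Gadd45b with Sesn1, and the 2 Cdkn1a probe sets correlated at 0.69 with each other.

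Markers of cell types moved in the same comparison and their part in the members' changes was not tested. In R6/2 against WT cortex 12 of 14 neuron markers, 9 of 12 astrocyte markers, 8 of 12 microglia markers and 4 of 11 oligodendrocyte markers fell, 1 astrocyte marker rose, and 4 of 14 endothelial and mural and 4 of 9 choroid plexus markers rose. Of the pituitary genes 3 of 7 fell, of the red blood cell transcripts 2 of 4 fell, and of the epidermal markers 2 of 10 rose. The log2 of the summed neuron markers ranged from 15.5 to 15.7 in R6/2 cortex and from 15.9 to 16.0 in WT cortex, and that of the microglia markers from 11.4 to 11.9 in R6/2 cortex and from 11.8 to 12.3 in WT cortex. The pituitary genes summed to between 6.99 and 7.59 in R6/2 cortex and between 7.17 and 12.9 in WT cortex. The summed choroid plexus markers ranged from 8.94 to 14.0 in Dble::R6/2 cortex, with a median of 12.5. Their medians were 10.8 in R6/2, 10.3 in Hdac4HET and 9.48 in WT cortex, where they ranged from 8.82 to 11.3.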

How the data were processed

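Array values were the log2 expression levels per probe set that the authors deposited for Affymetrix Mouse Genome arrays. Per the study's methods the authors excluded arrays of poor quality. How they corrected the background, normalized and summarised the probes is not given in the sources used here. All 34 columns were matched to samples by name and grouped by the labelled genotype. Gene names came from the platform annotation (34945 probe sets with 1 symbol, 932 with several, 9160 with none), updated through RefSeq (GRCm38.p6, 34741 matched).

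Each pair of genotypes was fitted by lmFit and eBayes (limma 3.58.1, R 4.3.3) on the arrays of that pair, as the methods compared pairs, and the interaction on all 34 arrays. The p-values of all 45037 probe sets were adjusted together (Benjamini-Hochberg, 0.05), with no filter on dim probe sets. All probe sets of the members were named, with up to 4 called genes per list and the 3 genes most like each member. The probe set with the highest mean stood for a gene elsewhere. The members and gene lists were chosen with earlier results of these data known. The fits were tested on simulated data. Replicates were separate mice, and their number limits the precision. Figures were drawn with matplotlib 3.10.9.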

Additional observations from a re-analysis of the deposited data

Results flagged for a closer look

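In 11 cases 1 array lay apart from the rest of its genotype, as judged by the gap to the nearest array over the whole range (Dixon's test), among 76 groups of 8 or 9 arrays. Chance flags about 1 in 20 groups, and probe sets of 1 array are not independent of each other.

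R6/2 replicate 2, the array with epidermal transcripts, accounted for 6 of the 11. It was lowest on the brighter Btg2 probe set at 6.02 (the other R6/2 arrays 7.50 to 7.95), on the second Cdkn1a probe set at 6.48 (7.41 to 8.04), on the brightest Mdm2 probe set at 8.31 (8.64 to 8.84) and on Gadd45g at 5.99 (6.61 to 7.24). It was highest on the brightest probe sets of Ccng1 at 9.998 (9.34 to 9.60) and Sesn1 at 10.22 (9.70 to 9.94). Each of these 6 probe sets has its R6/2 against WT change without this array given with its gene.

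The other 5 fell on different arrays. In Dble::R6/2 cortex, replicate 1 was lowest on the second Sesn1 probe set at 8.46 (the others 9.00 to 9.31) and replicate 7 on the second Btg2 probe set at 6.25 (6.53 to 6.77). In Hdac4HET cortex, replicate 4 was highest on the fourth Sesn1 probe set at 5.57 (5.05 to 5.27). In WT cortex, replicate 4 was highest on the second Cdkn1a probe set at 7.40 (6.80 to 7.04) and replicate 6 on the second Mdm2 probe set at 6.99 (6.34 to 6.63).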

How the results depend on the processing

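The settings tried were quantile normalization, brighter probe sets only, weighting of arrays, the trend and robust options of eBayes, sex as a term (labelled, or read from Xist), the replicate number as a block, a single fit of all 4 groups, the methods' t-test, leaving out the Prl-high arrays or R6/2 replicate 2, and leaving out each array in turn. The count of 2 called member probe sets in Hdac4HET against WT became 0 with sex read from Xist, 0 in the single fit of all 4 groups, 0 with the methods' t-test, 0 without the Prl-high arrays and 1 with the replicate block, and ranged from 0 to 3 when 1 array was left out. The cause was not tested. The other counts stayed within 1.5 times their value under every setting, but some calls were lost. R6/2 against WT went from 9 to 6 called without the Prl-high arrays. Dble::R6/2 against Hdac4HET went from 8 to 6 without them, with 5 shared, and from 8 to 6 with the methods' t-test. Leaving out 1 array gave 8 to 9 called in R6/2 against WT, 6 to 10 in Dble::R6/2 against Hdac4HET, 9 to 10 in Dble::R6/2 against WT, and 0 in Dble::R6/2 against R6/2 and in the interaction.

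With the replicate block the counts were 9 in R6/2 against WT, 6 in Dble::R6/2 against Hdac4HET, 9 in Dble::R6/2 against WT, and 0 in Dble::R6/2 against R6/2 and in the interaction. Same-numbered arrays did not all deviate together, so the numbers were not taken as pairs.

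Of 1122 values of single probe sets under the settings other than leaving out 1 array, 23 lost a call, 9 gained one and 0 with a call turned direction, and of 2261 with 1 array left out 59 lost a call, 10 gained one and 0 with a call turned direction. Values near 0 that were not called did change sign. In R6/2 against WT the brightest Btg2 probe set lost its call in 8 of 17 such fits (without WT replicate 1, 4, 6, 7 or 8 or R6/2 replicate 4, 8 or 9), at a limma adjusted p of at most 0.0727. In Dble::R6/2 against Hdac4HET the brightest Sesn1 probe set lost its call in 13 of 17 (kept without Hdac4HET replicate 4 or Dble::R6/2 replicate 1, 3 or 7), the second Btg2 probe set in 8 (without Hdac4HET replicate 1, 2, 3, 5 or 8 or Dble::R6/2 replicate 3, 7 or 9) and the brighter Cdkn1a probe set in 5 (without Hdac4HET replicate 1 or 6 or Dble::R6/2 replicate 2, 5 or 7). The lists' counts moved by over 1.5 times in 116 of their recomputed counts and stayed within it in 802.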
